A study of Mus musculus with 40 samples.

Results

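The G1/S cyclins and E2F-network factors followed here were 9 listed genes: Ccnd1, Ccne1, Ccne2, Ccna2, E2f1, E2f7, E2f8, Foxm1 and Mybl1. They were found by the name that opens each entry of the expression tables, which hold 11119 entries. Of the 9, 7 had an entry of their own. Ccne2 and Ccna2 stood only in joined entries (Ccne2--Ints8 and Exosc9--Ccna2, 2 of 507 joined entries in all), so their levels are those of 2 genes together and are given apart from the counts below.

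RNA sequencing of polyadenylated RNA was done on mouse livers before and after partial hepatectomy (PH, surgical removal of part of the liver, after which the remaining cells divide). The 40 samples fell into 9 groups. Groups treated with ATRi, the usual short name of an inhibitor of the replication checkpoint kinase ATR given at 24 h after PH, were 12-month mice at 48 h (n = 3) and 72 h (n = 4) and 3-month mice at 72 h (n = 4). Untreated 12-month mice were sampled at 0 h (n = 8), 48 h (n = 3) and 72 h (n = 4), and untreated 3-month mice at 0 h (n = 7), 48 h (n = 3) and 72 h (n = 4). By their labels, the 4 untreated and 4 ATRi 12-month mice at 72 h were also among the 0 h livers, as were 2 untreated and 2 ATRi mice of the 3-month 72 h groups. The titles write the ATRi regimen as 1 times 25, with no unit. Among the 3-month 0 h livers, those titled wt1, wt2 and wt3 carry another kind of name than the numbered mice. What that name stands for is not stated, and their values enter the 0 h mean. Strain, sex and any vehicle are not given in the sources used here.

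The levels are log2 of a value that the authors call sigma and do not define, so a gene's levels are compared with its own in other groups and not with those of another gene. For 8 groups the tables hold 1 mean and no spread, and a difference of means was counted when it reached 1, with no test. Only 1 group, the 12-month mice given ATRi and sampled at 72 h, has its 4 livers listed singly (M545 to M548, the mouse names) beside the mean. Comparisons with it were tested with limma over all entries. Each such test sets single livers against deposited means of other groups, and the 2 are not on one footing: this group's own deposited mean lay above the average of its 4 livers by a median of 0.088 over all entries and by 0.13 to 0.58 for 8 of the 9 genes here (E2f7 was 0.18 below). The labels call the cells hepatocytes. The 10 measured hepatocyte markers had summed log2 levels of 15.5 to 16.6 over the 9 means, the 8 macrophage markers 7.68 to 9.65 and the 5 neutrophil markers 2.74 to 6.62. These sums follow their highest genes and serve to compare groups, not lists. Of the defining markers of other cells, Cd8a, Ms4a1 and Jchain were below 1 in every mean. The share of entries lying 1 or more from the mean of the other 3 livers was 4.04% in M545, 4.90% in M546, 1.66% in M547 and 2.75% in M548. Whether the samples were whole liver or separated hepatocytes was not tested. Where cell types are mixed, fewer cells of a type and less RNA per cell cannot be told apart.

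Cells leave quiescence through a relay. Cyclin D with its kinase partners begins the phosphorylation of the retinoblastoma family, activator E2Fs are released, and they switch on the E and A cyclins and the genes of DNA replication. The atypical E2Fs, E2F7 and E2F8, are themselves E2F targets and repress the same genes late in S phase. FOXM1 and the MYB family members that bind the MuvB core then drive the genes of G2 and mitosis. After PH, most hepatocytes enter this cycle from quiescence, and many of them are polyploid, a state in which E2F7 and E2F8 have known roles in mouse liver.

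At 48 h after PH, 6 of the 7 members were higher than at 0 h at both ages, and E2f8 was the exception at both. Of all entries 48.1% were higher at 12 months and 39.2% at 3 months. At 12 months 6 of 7 were higher by 1 or more, where 3.26% of all entries were, and 0 of 7 were lower by 1 or more, where 1.85% were. At 3 months 5 of 7 were higher by 1 or more and 1 was lower, against 3.76% and 2.67% of all entries. The median difference of the 7 was 1.32 at 12 months and 1.56 at 3 months, beside −0.02 and −0.09 over all entries. Foxm1 had the widest difference of the 7 at both ages. The 0 h means of Foxm1, Mybl1 and E2f7 were below 1, at percentiles of 4.64 to 18.2 among all entries. Their log2 differences from 0 h thus start from low levels.

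**Figure D1:**
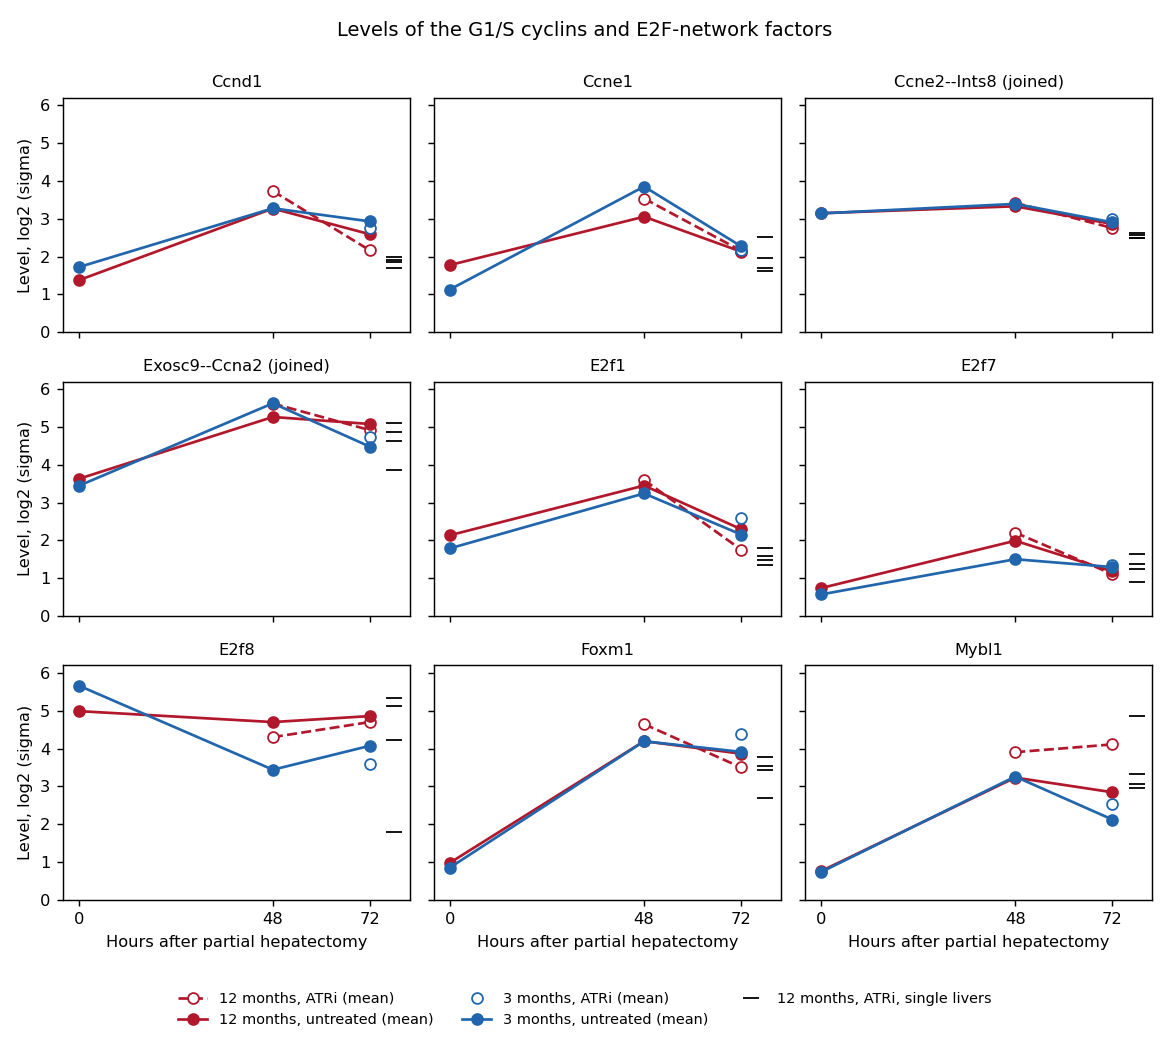
Levels (log2 of sigma, y axis) of the 9 genes by hours after PH (x axis). Red stands for 12 months and blue for 3 months, open circles for ATRi means and filled circles for untreated means, and black dashes drawn beside 72 h for the 4 single 12-month ATRi livers. Foxm1 and Mybl1 sit near 1 at 0 h and above 3 at 48 h, and E2f8 is highest at 0 h at both ages.

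Gene positions are those of GENCODE M21 on GRCm38. Ccnd1 (chr7:144929931-144939925, minus strand), the D-type cyclin that answers growth signals at the start of the relay, stood at 1.37, 3.27 and 2.59 at 0, 48 and 72 h in untreated 12-month livers, and at 1.72, 3.28 and 2.93 in 3-month livers. The 48 h means thus lay within 0.01 of each other across ages. The difference from 0 h that was present at 48 h was still there at 72 h to 64.1% at 12 months and to 77.7% at 3 months.

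Ccne1 (chr7:38097984-38107534, minus strand), the E-type cyclin that activates CDK2 at the G1/S border, stood at 1.77, 3.05 and 2.13 in untreated 12-month livers and at 1.13, 3.85 and 2.27 in 3-month livers. Its excursion was narrower at 12 months at both ends: the 0 h mean was higher by 0.65 and the 48 h mean was lower by 0.80 than at 3 months. At 72 h 27.7% of the 48 h difference remained at 12 months and 42.0% at 3 months. The joined entry that holds Ccne2 (chr4:11191351-11204779, plus strand), the second E-type cyclin, had means of 2.75 to 3.42 over all 9 groups, a range of 0.67. Ints8, a subunit of the Integrator complex, is annotated on the opposite strand and overlaps Ccne2 by 5622 bp, and what share of this entry belongs to either gene is not known.

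The joined entry of Ccna2 (chr3:36564865-36572150, minus strand), the A-type cyclin of S phase and G2, stood at 3.62, 5.26 and 5.08 in untreated 12-month livers and at 3.44, 5.62 and 4.48 in 3-month livers. At 72 h 88.6% of its 48 h difference remained at 12 months and 47.4% at 3 months, and the 12-month mean was higher than the 3-month mean by 0.60. Its partner in the entry is Exosc9, an exosome subunit on the opposite strand that overlaps it by 863 bp.

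E2f1 (chr2:154559407-154569892, minus strand), the activator E2F that pocket proteins hold in check, stood at 2.13, 3.45 and 2.29 in untreated 12-month livers and at 1.79, 3.24 and 2.15 in 3-month livers. Of the 6 members with an entry of their own that were higher at 48 h, it kept the smallest share of that difference at 72 h. At 72 h 12.2% of the 48 h difference remained at 12 months and 25.2% at 3 months.

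The 2 atypical repressors behaved unlike each other. E2f7 (chr10:110745439-110787384, plus strand) stood at 0.74, 1.99 and 1.18 in untreated 12-month livers and at 0.57, 1.50 and 1.29 in 3-month livers, so it was higher at 48 h by 1.25 and 0.93. E2f8 (chr7:48866429-48881596, minus strand) stood at 4.99, 4.70 and 4.86 in untreated 12-month livers and at 5.67, 3.44 and 4.07 in 3-month livers. Its 48 h mean was lower than at 0 h by 2.23 at 3 months and by 0.29 at 12 months, and at 48 h the 12-month mean was above the 3-month mean by 1.26. The only spread seen is that of the 4 single livers, of the 12-month ATRi group at 72 h. Their SD was 1.62, where M545 had 1.79 and the other 3 had 4.23 to 5.34. The 3-month difference of 2.23 was wider than that SD. The 12-month difference of 0.29 and the age difference of 1.26 were narrower.

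The windows just upstream of the annotated starts of the 2 repressors are shown because both are known E2F targets while their levels ran apart. Capitals mark matches to the motifs searched. The E2F set was TTTCCCGC, TTTCGCGC, TTTGCCGC and TTTGGCGC, and the same 4 forms without their first T, which the 8-letter forms contain. The CHR element, bound by the MuvB core, was searched as TTTGAA, and all were read on both strands. Sequences are 5′ to 3′ on the gene's strand from RefSeq's promoter windows of GRCm38.p6, for E2f7 at chr10:110745189-110745438 (plus strand) and for E2f8 at chr7:48881597-48881846 (minus strand).
E2f7: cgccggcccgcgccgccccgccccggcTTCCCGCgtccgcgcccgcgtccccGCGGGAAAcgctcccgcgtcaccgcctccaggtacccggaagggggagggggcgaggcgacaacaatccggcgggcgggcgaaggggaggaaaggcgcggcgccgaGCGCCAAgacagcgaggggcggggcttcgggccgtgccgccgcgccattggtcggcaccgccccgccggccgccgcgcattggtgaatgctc
E2f8: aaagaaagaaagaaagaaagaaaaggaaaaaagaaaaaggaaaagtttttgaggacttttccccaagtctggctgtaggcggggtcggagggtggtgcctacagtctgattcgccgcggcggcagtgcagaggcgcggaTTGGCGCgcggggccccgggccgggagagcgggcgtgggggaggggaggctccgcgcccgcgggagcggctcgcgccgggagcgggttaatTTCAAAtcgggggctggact
The E2f7 window held the 8-letter form on the minus strand (read as GCGGGAAA), a 7-letter match upstream of it, and TTGGCGC on the minus strand (read as GCGCCAA), with no CHR match. The E2f8 window held the 7-letter TTGGCGC and, nearer the start, the CHR letters on the minus strand (read as TTCAAA). Of 32536 windows of the same 250 bases, 1.87% held an 8-letter form, 7.94% a 7-letter form and 15.8% the CHR letters. In 206 bases upstream of Ccne1 none of these letters were found. RefSeq windows were matched for 4 of the 9 genes, and that of E2f1 lay inside the annotated gene and is not shown.

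Foxm1 (chr6:128362967-128376146, plus strand), the forkhead factor of G2 and mitotic genes, stood at 0.98, 4.19 and 3.86 in untreated 12-month livers and at 0.85, 4.19 and 3.91 in 3-month livers. Its differences from 0 h at 48 h were 3.22 at 12 months and 3.34 at 3 months, and 89.7% and 91.6% of them remained at 72 h. Mybl1 (chr1:9667415-9700209, minus strand), which encodes A-MYB, stood at 0.76, 3.23 and 2.84 in untreated 12-month livers and at 0.73, 3.26 and 2.12 in 3-month livers. At 0 h and 48 h its means at the 2 ages were within 0.03 of each other. At 72 h the 12-month mean was higher by 0.72, with 84.3% of the 48 h difference remaining at 12 months and 55.0% at 3 months. That 0.72 was narrower than the SD of Mybl1 in the 4 single livers (0.89).

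**Figure D2:**
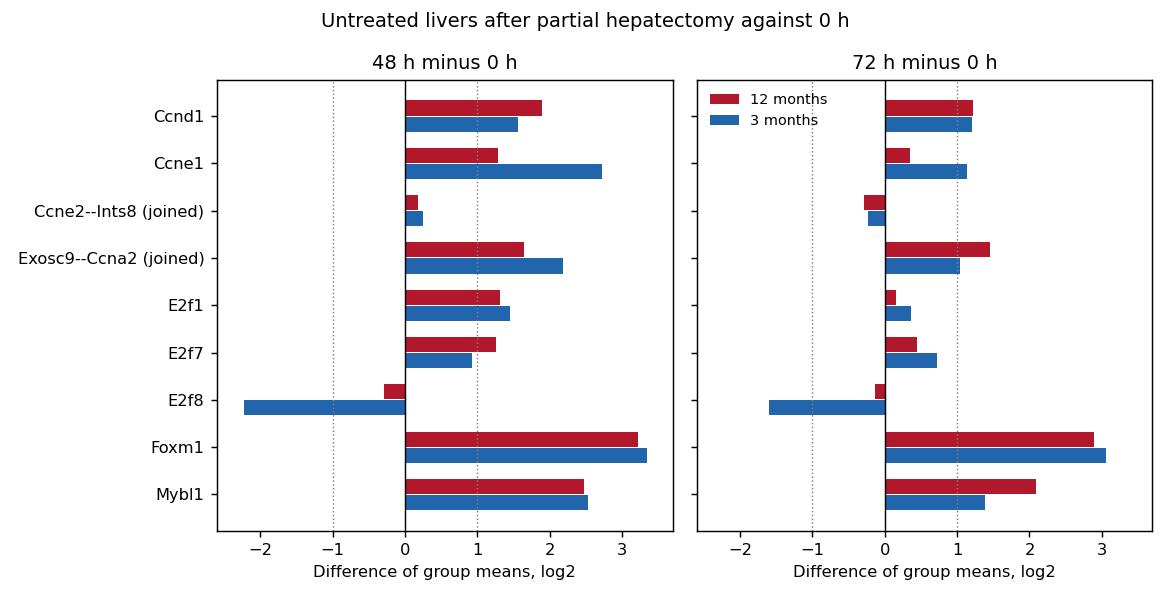
Differences of untreated group means from 0 h of the same age (x axis, log2) for the 9 genes (y axis) at 48 h (left) and 72 h (right), with 12 months in red and 3 months in blue. Dotted lines mark differences of 1. At 72 h E2f1 lies inside them at both ages while Foxm1 stays near 3.

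By 72 h 3 of the 7 members at 12 months were still higher than at 0 h by 1 or more (Ccnd1, Foxm1 and Mybl1), where 2.92% of all entries were, and 0 were lower, where 1.01% were. At 3 months 4 of 7 were higher by 1 or more (the same 3 and Ccne1) and E2f8 was lower, against 2.46% and 2.02% of all entries. Set against 48 h, 0 of 7 were higher by 1 or more at 72 h at either age, where 3.32% of entries were at 12 months and 1.61% at 3 months. Lower by 1 or more were 1 of 7 at 12 months (E2f1, by 1.15) and 3 of 7 at 3 months (Ccne1 by 1.58, Mybl1 by 1.14 and E2f1 by 1.09), where 1.89% and 3.04% of entries were. The summed macrophage markers at the same times were 8.55, 7.68 and 9.65 at 0, 48 and 72 h in untreated 12-month livers, and 7.77, 7.99 and 8.23 in 3-month livers. Of the 8 macrophage markers, 0 were above 0 h at 48 h and 7 at 72 h at 12 months, against 3 and 4 at 3 months. The neutrophil sums were 5.25, 3.03 and 6.26 at 12 months and 2.90, 3.11 and 3.05 at 3 months. Of the 5 neutrophil markers, 0 were above 0 h at 48 h and 4 at 72 h at 12 months, against 3 and 1 at 3 months. Of all entries 48.1% and 39.9% were above 0 h at 48 h and 72 h at 12 months, against 39.2% and 39.3% at 3 months. The part of these markers in the differences above was not tested.

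Between ages few members differed by 1. At 0 h no member did, where 0.872% of all entries were higher and 0.396% lower at 12 months. At 48 h E2f8 was the 1 of 7 that was higher, against 0.782% of entries, and 0 were lower, against 0.576%. At 72 h again no member differed by 1, where 1.97% of entries were higher and 0.773% lower at 12 months. These age differences, between 1 mean a group, were not tested, and the 48 h and 72 h differences of an age share its 0 h mean.

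The genes under the control of these factors were described from lists of genes known to be bound or driven by them, none of which holds a member. Of 36 E2F targets of DNA replication 28 had an entry of their own. At 48 h 21 of 28 were higher by 1 or more at 12 months (median 1.60) and 20 of 28 at 3 months (median 1.66), where 3.26% and 3.76% of all entries were. At 72 h 9 of 28 were at each age, with medians of 0.67 and 0.80, where 2.92% and 2.46% of all entries were. Examples are Rrm2, a subunit of ribonucleotide reductase, higher at 48 h by 3.07 at 12 months and 3.03 at 3 months, and Mcm5, a subunit of the replicative helicase, higher by 3.05 and 2.94.

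Of 27 FOXM1 and MYB-MuvB targets 23 had an entry of their own, and all 23 were higher by 1 or more at 48 h at both ages (median 3.11 at 12 months and 3.57 at 3 months). Ccnb2, a mitotic cyclin, was higher by 4.11 and 5.60, and Cdk1, its kinase partner, by 4.57 and 4.67. Mki67, the proliferation marker Ki-67, was higher by 4.05 and 4.20. Relative to 48 h, all 23 had lower means at 72 h at both ages. Higher means at 72 h were seen in 39.9% of all entries at 12 months and 48.4% at 3 months. Lower by 1 or more were 0 of 23 at 12 months (median −0.50), where 1.89% of all entries were, and 18 of 23 at 3 months (median −1.05), where 3.04% were. The difference between ages in this step was not tested. At 72 h 22 of 23 had a higher mean at 12 months than at 3 months, where 45.3% of all entries did. None was higher by 1 or more (median 0.52, beside −0.03 over all entries). The 72 h means of Mybl1 and of the joined Ccna2 entry were higher at 12 months too, that of Foxm1 lower by 0.05. The Mybl1 difference (0.72) was narrower than the SD of its 4 single livers (0.89). That of the Ccna2 entry (0.60) was little wider than its SD (0.54).

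**Figure D3:**
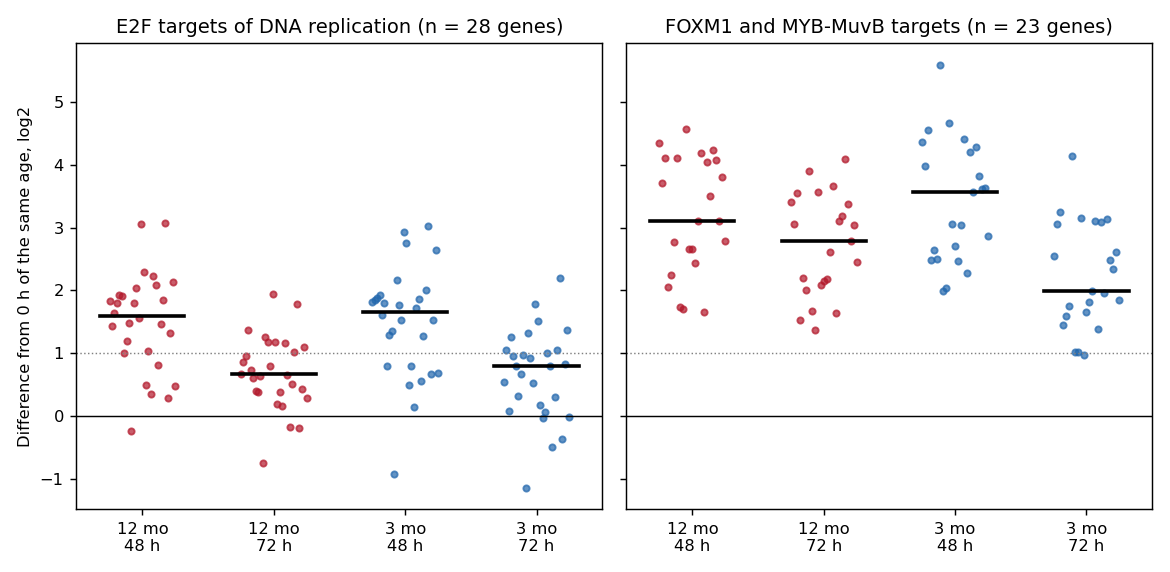
Differences from 0 h of the same age (y axis, log2) for genes of the 2 target lists at 48 h and 72 h, with 12 months in red and 3 months in blue. Each point is 1 gene and black bars are medians. The FOXM1 and MYB-MuvB targets have medians of 3.11 and 2.78 at 12 months and of 3.57 and 1.996 at 3 months.

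Among other parts of the G1/S machinery, differences at 48 h were smaller or fell on single genes. Of all entries 3.26% at 12 months and 3.76% at 3 months were higher by 1 or more at 48 h, and 1.85% and 2.67% lower. In lists of 6 or 7 genes, counts of 0 or 1 lie near these shares and say little about the list. Of 6 CDK inhibitor genes, Cdkn1a was the 1 that was higher than at 0 h by 1 or more, by 2.50 at 12 months and 2.39 at 3 months. Cdkn1c was lower by 1.13 at 3 months and differed by 0.08 at 12 months. The pocket protein gene Rbl1, itself an E2F target, was higher by 1.55 and 1.69. The pocket protein gene Rb1 differed by −0.07 and −0.31, and Mybl2, which encodes B-MYB, by 0.67 and 0.48. Of 6 other G1/S cyclins, kinases and activators measured, including Ccnd2, Cdk6 and Cdc25a, none differed by 1 at either age. Of 6 other E2Fs and their dimer partners, 1 was higher by 1 or more at each age: Tfdp1 by 1.05 at 12 months and E2f2 by 1.02 at 3 months. Of 7 genes of cyclin and E2F turnover 2 were higher by 1 or more at both ages, Fbxo5, an inhibitor of the anaphase-promoting complex (1.40 and 1.18), and Ccnf, which encodes a cyclin of an SCF ubiquitin ligase (1.27 and 1.06). Of 6 growth-signal genes upstream of cyclin D, among them Myc, Jun, Egfr and Met, none differed by 1 at 48 h. At 72 h 1 of the 6, Egfr, was higher by 1 or more at each age, where 2.92% and 2.46% of all entries were. The Egfr means were 6.48 at 12 months and 5.08 at 3 months, against 3.58 and 3.44 at 0 h. Between deposited means of 12-month livers at 72 h, 2 of the 6 were higher with ATRi by 1 or more and 0 lower. These were Egfr (1.78) and Yap1 (1.46), where 840 of all entries were higher by 1 or more. That share differed with gene length, at 2.44% of genes up to 10 kb and 21.9% of those over 100 kb. The part of gene length in the differences of Egfr and Yap1 was not tested. Cdk2 and Cdk4 were not analysed here, having no entry of their own.

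ATRi at 48 h in 12-month livers went with small differences. Of the 7 members 6 were above the untreated mean, by 0.15 to 0.67 with Mybl1 the widest, and E2f8 was below it by 0.40. None reached 1, where 0.324% of all entries were higher and 0.252% lower by that much. The median of the 7 was 0.45, beside −0.001 over all entries. In 3-month livers at 72 h 4 of 7 were above the untreated mean (median 0.05, beside −0.003 over all entries). Foxm1 was 0.46 above it, E2f1 0.44, Mybl1 0.41 and E2f7 0.05, while E2f8 differed by −0.48, Ccnd1 by −0.18 and Ccne1 by −0.10. Again none reached 1, where 0.054% of entries were higher and 0.126% lower. Of the FOXM1 and MYB-MuvB targets, 22 of 23 were above the untreated mean in each of these comparisons, with medians of 0.30 at 12 months and 48 h and 0.35 at 3 months and 72 h, where 49.7% and 49.0% of all entries were above it. At 12 months and 72 h, by the deposited means, 7 of the 23 were above the untreated mean (median −0.20), as were 2 of the 28 E2F targets (median −0.29), where 57.6% of all entries were.

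In 12-month livers at 72 h the ATRi livers can be seen singly. Ccnd1 had 1.997, 1.86, 1.90 and 1.70 in ATRi livers M545, M546, M547 and M548, against a mean of 2.59 in untreated livers. All 4 ATRi livers lay below that mean, as they did below their own group's deposited mean of 2.16. E2f1 had 1.79, 1.48, 1.36 and 1.57 in the same ATRi livers, against 2.29 in untreated livers, with a deposited ATRi mean of 1.75. Foxm1 had 2.70, 3.79, 3.54 and 3.43 in ATRi livers, against 3.86 in untreated livers. Mybl1 went the other way, with 4.86, 3.06, 2.95 and 3.33 in ATRi livers, against 2.84 in untreated livers: all 4 were above, 3 of them by less than 0.5.

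None of the members passed the test of this comparison, nor did any of the 11119 entries (0% at an adjusted p under 0.05, limma with Benjamini-Hochberg adjustment), although 4116 entries (37%) had an unadjusted p under 0.05. The fitted differences were −0.74 ± 0.17 (SE) for E2f1 (limma adjusted p = 0.0526) and −0.72 ± 0.16 for Ccnd1 (adjusted p = 0.0521), just outside the threshold, and 0.70 ± 0.46 for Mybl1 (adjusted p = 0.29). Between deposited means E2f1 differed by −0.54 and Ccnd1 by −0.43, smaller than the fitted values. Without M546 both E2f1 (−0.72) and Ccnd1 (−0.72) passed, at limma adjusted p of 0.0402 and 0.0334. Over 11 alternatives, of which 3 passed for each gene, their limma adjusted p ran from 0.0402 to 0.371 and from 0.0334 to 0.371. Without M545 the difference of Mybl1 was 0.27. That of E2f8 was 0.04 without M545, against −0.74 with all 4 livers.

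**Figure D4:**
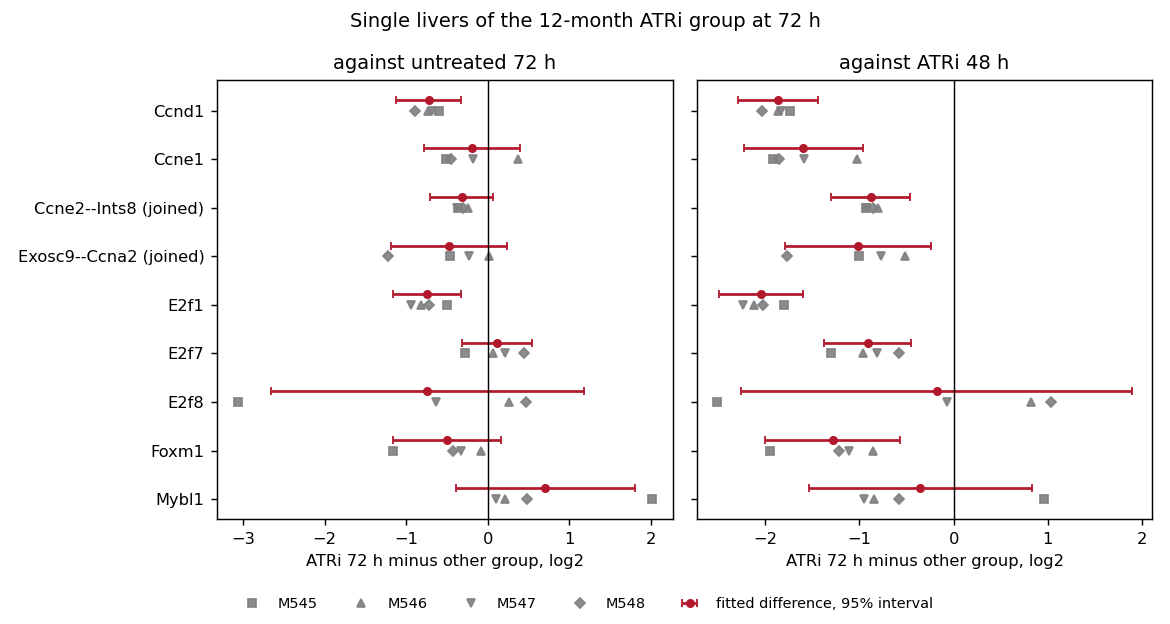
Differences (x axis, log2) of the 4 single 12-month ATRi livers at 72 h from the untreated 72 h mean (left) and from the ATRi 48 h mean (right) for the 9 genes (y axis). Grey symbols are livers, and red points with bars are the fitted difference with its 95% interval. M545 stands apart for E2f8 and Mybl1, and all 4 livers lie left of 0 for Ccnd1 and E2f1 in both panels.

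The deposited group means give a partly different view of the same comparison. By them Mybl1 alone of the 7 differed by 1, at 4.11 in ATRi livers and 2.84 in untreated livers, a difference of 1.26. Of all 11119 entries, 840 were higher and 93 lower by 1 or more in this comparison. Its deposited ATRi mean lay above 3 of the 4 single livers and 0.56 above their average. In this comparison the levels of all entries differed with gene length, with a median of −0.08 for genes up to 10 kb, −0.10 for those of 10 to 20 kb, 0.06 for those of 20 to 50 kb and 0.50 for those over 100 kb (10061 entries with a length). Mybl1 spans 32.8 kb and E2f7 41.9 kb, while the other members span 7.29 to 15.2 kb. Between deposited means of the groups compared in the next 3 tests, the medians for 10 to 20 kb and over 100 kb were −0.21 and 0.63 against 0 h, −0.25 and 0.65 against ATRi at 48 h, and −0.09 and 0.58 against 3-month ATRi livers. The part of gene length in the members' differences was not tested.

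The 3 further tests used the same 4 ATRi livers, so they are not independent of each other. Set against livers at 0 h, which included the same 4 mice, 4 of the 7 members rose in 12-month ATRi livers at 72 h and 1 fell, where 23% of all entries passed upward and 25.1% downward. The fitted differences were 2.79 ± 0.40 (SE) for Mybl1 (limma adjusted p = 0.00299) and 2.39 ± 0.24 for Foxm1 (adjusted p = 0.00158), with all 4 livers above the 0 h mean for both. With a pseudocount of 1 they were 2.25 and 1.93. E2f7 rose by 0.55 ± 0.16 and Ccnd1 by 0.49 ± 0.14. E2f1 fell by 0.58 ± 0.15, and all 4 livers, at 1.36 to 1.79, were below its 0 h mean of 2.13. The joined Ccna2 entry rose by 0.98 ± 0.26 and the joined Ccne2 entry fell by 0.61 ± 0.14. Ccne1 (0.17 ± 0.21) and E2f8 (−0.87 ± 0.69) did not pass. The calls of Ccnd1, E2f7 and E2f1 were lost when M547 or M548 was left out (limma adjusted p of 0.0557 to 0.103), that of Ccnd1 also without M545 (0.0662) and that of E2f7 also without M546 (0.0503). For Ccna2 the call was lost without M545, M546 or M547 (0.0508 to 0.0664), for Ccne2 without M547 (0.06). With every mean weighted as 1 liver, no member kept its call (limma adjusted p of 0.0532 for Foxm1 to 0.253 for Ccnd1 among those called). With the livers anchored to their deposited mean E2f1 (0.0767), E2f7 (0.0869) and Ccne2 (0.0574) lost theirs. Over the 11 alternatives the adjusted p ran from 0.00118 to 0.0532 for Foxm1 and from 0.00169 to 0.0743 for Mybl1.

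Set against ATRi at 48 h, E2f1 fell by 2.04 ± 0.19 (SE), Ccnd1 by 1.87 ± 0.18, Ccne1 by 1.59 ± 0.26, Foxm1 by 1.28 ± 0.30 and E2f7 by 0.91 ± 0.19 (limma adjusted p of 0.00393 to 0.0188). These were 5 of the 7 members, with all 4 livers below the 48 h mean, where 17.8% of all entries passed upward and 20.7% downward. The joined Ccne2 entry (−0.88) and Ccna2 entry (−1.01, limma adjusted p = 0.0473) fell too, and Ccna2 lost its call without M545, M547 or M548 (0.0537 to 0.0855, and 0.0353 to 0.189 over the 11 alternatives). With every mean weighted as 1 liver, E2f1 and Ccnd1 kept their calls (limma adjusted p = 0.0379 for both), and those of the other members were lost (0.0575 to 0.189). Mybl1 did not pass (−0.36 ± 0.49), with M545 above the 48 h mean of 3.90 and the other 3 livers below it. Without M545 it was lower by 0.79 and passed (limma adjusted p = 0.0377, range 0.0377 to 0.839 over the 11 alternatives). E2f8 did not pass either (−0.18 ± 0.86), and without M545 its difference was 0.59. Among the E2F targets of DNA replication 26 of 28 fell and 0 rose in this comparison (median −1.58), as did 19 of 23 FOXM1 and MYB-MuvB targets (median −1.10). The summed macrophage and neutrophil markers were 9.50 and 6.62 in ATRi livers at 72 h, against 7.82 and 3.17 at 48 h. Their part in these differences was not tested.

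Set against 3-month ATRi livers at 72 h, E2f1 fell by 1.04 ± 0.17 (SE), Foxm1 by 1.01 ± 0.28 and Ccnd1 by 0.88 ± 0.16 (limma adjusted p of 0.0119, 0.0374 and 0.0147), and all 4 livers of the 12-month group were below the 3-month mean for each. These 3 of 7 stand beside 12.9% of all entries that passed downward and 17.3% upward. The Ccnd1 and Foxm1 calls were lost without M547 (limma adjusted p = 0.0549 and 0.0824) and without M548 (0.0529 and 0.0895), and over the 11 alternatives ran from 0.012 to 0.143 and from 0.0286 to 0.23. With every mean weighted as 1 liver all 3 calls were lost (0.129 to 0.23). Mybl1 was higher by 1.02 ± 0.46 and E2f8 by 0.52 ± 0.80, neither passing. With the livers anchored to their deposited mean, Mybl1 was higher by 1.58 and passed (limma adjusted p = 0.0447, range 0.0447 to 0.408 over the 11 alternatives) and Foxm1 lost its call (0.0566). Without M545 E2f8 was higher by 1.30 and passed (limma adjusted p = 0.0439, range 0.0439 to 0.926 over the 11 alternatives). The summed macrophage and neutrophil markers were 9.50 and 6.62 at 12 months, against 7.92 and 2.74 at 3 months, and their part was not tested here either.

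Whether ATRi went with another difference at 12 months than at 3 months was tested as the difference of the 2 differences at 72 h. It was −1.18 ± 0.25 (SE) for E2f1 (limma adjusted p = 0.11), −0.96 ± 0.39 for Foxm1 (adjusted p = 0.197) and −0.54 ± 0.23 for Ccnd1 (adjusted p = 0.211), and no member passed. Of all entries 1 did (0.00899%), while 24.5% had an unadjusted p under 0.05. Without M546 the value of E2f1 was −1.16 and passed (limma adjusted p = 0.0447, range 0.0447 to 0.892 over 10 alternatives).

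For each member, the entries whose level ran most alike over the 9 group means were sought among 4152 genes with a range of 1 or more. The means share the authors' normalisation, and those of 0 h and 72 h share mice, so these are descriptions. Ccnd1 ran closest to Wee1, which encodes a kinase that holds CDK1 inactive (Pearson r = 0.997), and to Usp2, which encodes a deubiquitinase known to act on cyclin D1 (r = 0.99). Foxm1 ran closest to the mitotic genes Pbk (r = 0.984), Birc5 (r = 0.982) and Nuf2 (r = 0.981), and the joined Ccna2 entry to Parpbp (r = 0.994), Cdca2 (r = 0.989) and Aurka (r = 0.988). E2f7 ran with the DNA repair and replication genes Gen1 (r = 0.986), Topbp1 (r = 0.98) and Lig1 (r = 0.977), and E2f1 with Haus5 (r = 0.98), Zik1 (r = 0.98) and the replication gene Gins1 (r = 0.98). Ccne1 ran closest to Calm3 (r = 0.976) and Mybl1 to Sema6b (r = 0.978), with the histone methyltransferase gene Ezh2, an E2F target, also among its closest 3 (r = 0.964). The joined Ccne2 entry ran closest to Rexo4 (r = 0.981).

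E2f8 had the lowest best likeness of the members with an entry of their own. Its closest were Sftpd (r = 0.953) and Mbl1 (r = 0.93), which both encode secreted collectins, and Paqr9 (r = 0.894), none of them a known cell-cycle gene. Csrp3, which encodes a muscle LIM protein, lies 18395 bp beyond the 3′ end of E2f8 on the same strand. Csrp3, chosen after its values were seen, had 1.80, 3.18, 3.52 and 3.96 in ATRi livers M545, M546, M547 and M548, against 3.78 in untreated 72 h livers, so M545 was lowest for both neighbours. Over the 9 means the r between them was 0.66.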

How the data were processed

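The authors deposited 12 tables of log2 levels of polyadenylated RNA (log2 of a value named sigma in the tables and not defined in the sources used here). Per the submitters' processing notes the genome build was GRCm38 (mm10). The aligner, the counting, the use of strand, the scaling between samples and the making of the group means are not given in the sources used here, and the tables hold no counts, so the depth is unknown and no interval that rests on it is given. No per-sample column was left unused (0).

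Groups came from the sample titles. The 4 single livers (weight 1 each) and the 8 other deposited means (weighted by their number of mice) were fitted together with limma 3.58.1 in R 4.3.3 (trend and robust empirical Bayes), two-sided, adjusted by Benjamini and Hochberg over 11119 entries. The spread comes from the 4 ATRi livers alone and is assumed for the means. The weights stand for mice whose single values are not seen, and most calls rest on them. No label says how the livers were processed, so p-values measure only the spread between these samples. Differences between means were described by size, counted at 1. The members and the gene lists were chosen with earlier results of these data known. Named beside the members were up to 4 genes a list with the largest 48 h difference averaged over ages, up to 2 a list for ATRi, and Cdkn1a, Cdk2, Cdk4, Rb1, Rbl1, Mybl2 and Mki67 in any case, and for likeness the 3 genes of highest Pearson r over the 9 means among genes with a range of 1 or more. Other genes of a list are named only to say what the list holds. Gene positions and lengths came from GENCODE M21, promoter windows from RefSeq (GRCm38.p6). Alternatives were another weighting, centring, pseudocount, filter, anchoring of the livers to their deposited mean, a fit without trend, only the groups compared, and leaving out each liver. The labels pair 12-month mice between 0 h and 72 h, but the 0 h livers are given only as a mean, so no paired fit was made.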

Additional observations from a re-analysis of the deposited data

How the results depend on the processing

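No paired analysis was possible because only 1 group has single livers, so the replicate numbers could not serve as a block. How many of the 11119 entries passed the limma test depended on the fit. For 12-month ATRi livers against untreated livers at 72 h the number was 0, but 1270 with the livers anchored to their deposited mean, 720 with median centring, 1041 with only the groups compared, and 0 to 3191 with 1 liver left out (3191 without M546). With every mean weighted as 1 liver it was 219 in place of 5352 against 0 h, 2 in place of 3350 against 3-month ATRi livers and 665 in place of 4279 against ATRi at 48 h. With 1 liver left out these ran over 3615 to 5693, 1072 to 4426 and 2511 to 4911, where the last 2 were lowest without M547 and next without M548 (1182 and 2723). Of 396 refits of single members in these tests 334 kept direction and side of the threshold, 41 lost a call, 10 gained one and 11 changed sign.

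The sign changes were of differences that had not passed. Those given below for the difference of ATRi differences are beyond the 11, as it was not among the 396 refits. Anchoring to the deposited mean gave 0.023 for Ccne1 and −0.071 for E2f7 against untreated livers, 0.191 for Ccna2 against 3-month ATRi livers, 0.40 for E2f8 and 0.205 for Mybl1 against ATRi at 48 h, and 0.122 for Ccne1, 0.319 for E2f8 and −0.123 for E2f7 in the difference of ATRi differences. With 1 liver left out, E2f8 ran from −1.14 to 0.0377 and E2f7 from −0.00133 to 0.241 against untreated livers, Ccne1 from −0.0223 to 0.273 against 0 h, Ccna2 from −0.283 to 0.134 and E2f7 from −0.167 to 0.0747 against 3-month ATRi livers, and E2f8 from −0.586 to 0.595 against ATRi at 48 h. In the difference of ATRi differences Ccne1 ran from −0.278 to 0.0173, E2f8 from −0.667 to 0.514, E2f7 from −0.0533 to 0.189 and Mybl1 from −0.143 to 0.493.

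Of members differing by 1 or more between deposited means, a pseudocount of 1 left 1 of 3 between 72 h and 48 h at 3 months and 3 of 5 between 3-month ATRi livers at 72 h and 0 h. Counting from 0.5 gave 4 in place of 1 between 72 h and 48 h at 12 months, 2 in place of 0 between ages at 0 h and at 72 h, 2 in place of 1 at 48 h, 1 in place of 0 for ATRi at 48 h, 2 in place of 1 for ATRi at 72 h and 12 months, and 5 in place of 2 between ages with ATRi. The 1 member of that 12-month comparison (Mybl1) no longer counted with the mean of the 4 livers (0), and leaving out a liver gave 0 to 1 there, 2 to 3 against 0 h and against 3-month ATRi livers, and 4 to 5 against ATRi at 48 h. The cause was not tested. Depth is unknown, and 8 of the 9 groups have no spread.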
